A study of Homo sapiens with 4 samples.

Results

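The genes read here are the vascular endothelial growth factor (VEGF) ligands VEGFA, VEGFB, VEGFC and PGF, their receptors FLT1, KDR and FLT4, and the neuropilins NRP1 and NRP2. They were chosen by name, as all non-control probes of the array that carry a member's symbol, which gave 25 probes for 9 of the 29117 genes on the array. VEGFA had 4 probes, VEGFB 2, VEGFC and PGF 1 each, FLT1 3, KDR 2, FLT4 3, NRP1 4 and NRP2 5. All 25 passed the filter on dim spots, which asked that both arrays of a group hold a probe clear of background in 1 channel or more, and so all entered the tests.

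VEGF ligands are secreted growth factors that bind receptor tyrosine kinases, best known from blood and lymphatic endothelium, where they drive vessel growth and permeability. VEGFA, VEGFB and PGF bind FLT1, VEGFA binds KDR, and VEGFC and VEGFD bind FLT4 and, after proteolytic processing, KDR. Neuropilins are co-receptors with a short cytoplasmic tail that bind VEGF ligands as well as class 3 semaphorins, and ovarian carcinomas are known to secrete VEGFA into ascites.

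RNA came from A2780s, an established human epithelial ovarian cancer (EOC) cell line. Each of 4 arrays with 2 colours on 1 slide paired a KO clone in Cy5 with Ctrl in Cy3, the Ctrl being A2780s cells that were mock-transfected. By the labels no dyes were swapped, so in a ratio or a test against 0 a dye effect of a probe cannot be told apart from KO. The study's methods say that KO and Ctrl carried opposite dyes without naming them, so the direction of every ratio rests on the dyes in the labels. The 2 GALNT3 KO clones carried a CRISPR/Cas9 disruption of GALNT3, made with a repair plasmid and puromycin selection. The 2 clones labelled GALNT3/T6 KO came from GALNT3 KO cells that had also received a lentiviral short hairpin RNA against GALNT6 and a further puromycin selection, so that transduction and selection cannot be told apart from the GALNT6 target. Whether the same Ctrl RNA was used on all 4 arrays is not given in the sources used here. A value is the normalized log2 ratio of a KO clone to Ctrl, and the replicates are clones. A gene is represented by its brightest probe, and it is called where limma's p, adjusted by Benjamini-Hochberg over 27220 genes, was 0.05 or lower.

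The targeted genes were read first. On the GALNT3 KO arrays the GALNT3 probe was dim in both channels, that is not well above background, so it does not check the knockout there. Its Ctrl channel stood at log2 signals of 6.19 and 6.30 on these arrays. The paper, by contrast, describes A2780s as expressing GALNT3 strongly. On the GALNT3/T6 KO-labelled arrays the log2 ratio of GALNT3 was 4.80 and 5.08, that is higher in KO than in Ctrl, against the label. GALNT6 stood at -0.47 and -0.38 on the GALNT3 KO arrays and at -0.66 and -0.69 on the GALNT3/T6 KO-labelled arrays. For GALNT6, limma called a fall in each group, at -0.42 in GALNT3 KO (adjusted p = 0.0447) and -0.67 in the other (adjusted p = 0.00335). The difference between the groups for GALNT6, -0.25, was not called (adjusted p = 0.211). The paper reports the opposite direction for GALNT6 protein in its GALNT3 KO clones. The reason for these differences from the paper was not tested, so neither targeted gene bears out the GALNT3 KO label here. Because of GALNT3, the second group is named by its label throughout. The share of spots well above background in a channel ran from 86.9% to 93.8%, with no saturated spot. Across genes, the replicate arrays correlated at r = 0.835 and 0.917, and arrays of different groups at 0.205 to 0.324.

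Some of the probes used below are shown here in the sense of the transcript, with hg19 positions from the array annotation. Others, such as the VEGFC probe, are not printed. The first 2 lie in the same stretch of NRP1 and NRP2. Capitals mark the 29 of 48 aligned bases that both share (60.4%), so the related genes are read by clearly different letters.
NRP1 probe A_23_P86390, chr10:33469039-33469098, minus strand: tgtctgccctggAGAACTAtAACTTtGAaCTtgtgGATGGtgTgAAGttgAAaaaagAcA
NRP2 probe A_23_P393727, chr2:206659703-206659762, plus strand: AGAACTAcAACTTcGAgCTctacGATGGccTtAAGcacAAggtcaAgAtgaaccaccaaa
The next probe is the NRP1 probe that moved most among those that are printed. Its 60 bases lie within 5729 bases of genome, so it crosses at least 1 exon junction. No letter is marked in it or in the probes that follow.
NRP1 probe A_24_P135322, chr10:33496622-33502350, minus strand: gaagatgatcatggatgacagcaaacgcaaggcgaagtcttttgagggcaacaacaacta
FLT4 is read by probes that disagree. The first below, annotated to transcript variant 2, spans 911 bases of genome and thus also crosses a junction, while the other is annotated to variant 1.
FLT4 probe A_23_P356070, chr5:180036045-180036955, minus strand: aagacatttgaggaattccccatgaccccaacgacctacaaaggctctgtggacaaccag
FLT4 probe A_24_P926979, chr5:180030247-180030306, minus strand: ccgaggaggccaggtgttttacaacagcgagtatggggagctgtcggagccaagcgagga
The last 3 are junction probes of VEGFA, VEGFB and KDR, for which another probe of the gene gives the gene-level value.
VEGFA probe A_23_P70398, chr6:43746223-43746634, plus strand: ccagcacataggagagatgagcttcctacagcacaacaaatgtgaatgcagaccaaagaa
VEGFB probe A_24_P55971, chr11:64003454-64003757, plus strand: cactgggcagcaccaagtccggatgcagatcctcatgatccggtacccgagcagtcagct
KDR probe A_23_P58419, chr4:55948798-55953828, minus strand: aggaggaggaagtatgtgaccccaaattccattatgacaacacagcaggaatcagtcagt

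On the GALNT3/T6 KO-labelled arrays, 3 of the 4 ligands, VEGFA, VEGFB and VEGFC, and the receptors FLT1 and KDR were higher than in Ctrl, together with both neuropilins, while the receptor FLT4 was lower. The change was largest for VEGFC, at 18.2-fold, and between 1.33-fold and 2.70-fold for the other rises. By limma, 7 of the 9 genes were called higher and 1 lower in this group, where 47.8% of all genes tested were called, 24.8% higher and 23.1% lower. In GALNT3 KO, 1 of the 9 genes, KDR, was called higher and 0 lower, where 11.0% of all genes were called, 4.69% higher and 6.35% lower. The unadjusted p was at most 0.05 for 3 higher members and 1 lower member there. The median log2 ratio of the 9 genes was 0.69 on the GALNT3/T6 KO-labelled arrays, against 0.032 over all genes, and 0.049 in GALNT3 KO, against 0.024 over all genes. Set directly against GALNT3 KO, the GALNT3/T6 KO-labelled arrays were higher in VEGFA, VEGFB, VEGFC and KDR and lower in FLT4, in a comparison that called 23.7% of all genes, 11.8% higher and 11.9% lower. By the study's own criterion, an unadjusted p of at most 0.05 with at least a 1.5-fold change, 2 of the 9 genes changed in GALNT3 KO (VEGFC higher, VEGFB lower) among 9.61% of all genes, 7 changed on the GALNT3/T6 KO-labelled arrays among 31.8%, and 4 differed between the groups among 26.9%. In its network analysis of GALNT3 KO, the paper counts VEGF among strongly downregulated nodes, without naming the gene. VEGFA met neither the study's criterion nor the limma call in GALNT3 KO here. The 2 arrays of one group lay outside those of the other for all 9 genes, 7 higher and 2 lower on the GALNT3/T6 KO-labelled arrays, as they did for 61.0% of all genes, 30.0% higher and 31.0% lower. Leaving out GALNT3 KO replicate 1 or replicate 2 took all 5 limma calls of the difference away, with adjusted p between 0.0519 and 0.215, while the share of all genes called fell from 23.7% to 4.66% and 5.39%. The directions stayed, and the unadjusted p was at most 0.05 for 6 and 4 of the 9 genes.

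**Figure D1:**
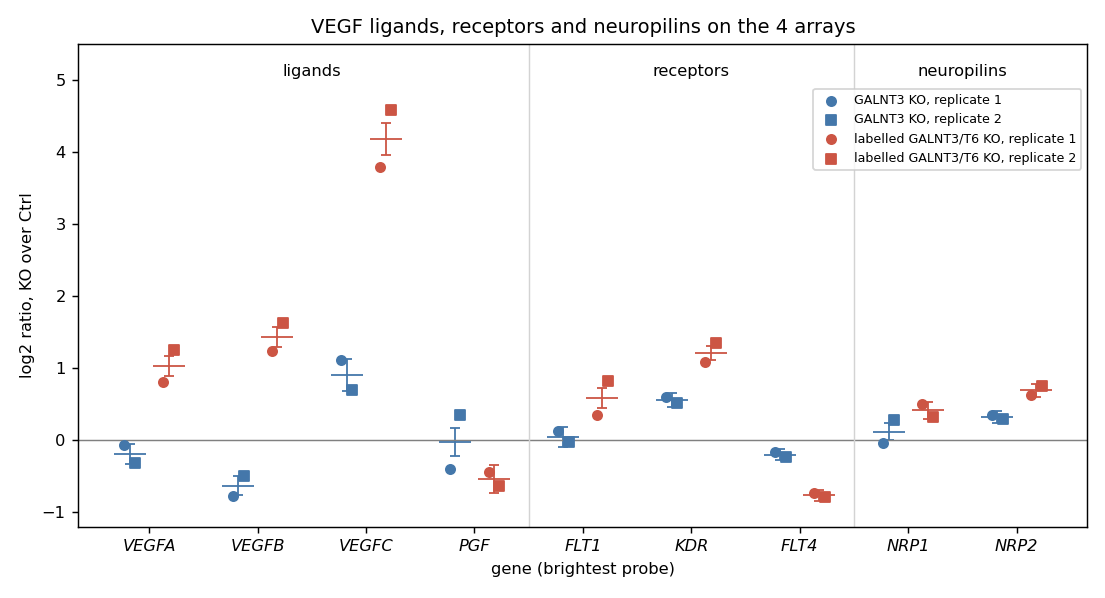
Log2 ratio of KO over Ctrl (vertical axis) for each of the 9 genes by its brightest probe (horizontal axis), with a point for each array and a horizontal bar with whiskers for the group mean and its standard error from limma (2 arrays per group). VEGFC stands highest, at 3.79 and 4.58 on the GALNT3/T6 KO-labelled arrays, and FLT4 is the gene whose 2 values there, -0.74 and -0.79, lie lowest.

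VEGFC, the ligand of FLT4 and a driver of lymphatic vessel growth, had a log2 ratio of 1.11 and 0.70 on the GALNT3 KO arrays and of 3.79 and 4.58 on the GALNT3/T6 KO-labelled arrays. All 4 arrays were above 0, and both arrays of the second group were far above both of the first. Its mean was 4.18 on the GALNT3/T6 KO-labelled arrays (standard error 0.22, adjusted p = 0.000348 from limma) and 0.90 in GALNT3 KO (standard error 0.22, adjusted p = 0.0659). The difference between the groups was 3.28 (standard error 0.31, adjusted p = 0.00338), which is 9.72-fold. The normalized log2 signal in the KO channel was 10.20 and 9.84 on the GALNT3 KO arrays and 13.95 and 15.30 on the GALNT3/T6 KO-labelled arrays. The Ctrl channel was also brighter on the latter, at 10.16 and 10.72 against 9.09 and 9.14, and its part in the ratio was not tested. When the spread was taken from the GALNT3 KO arrays alone, as it is without either replicate of the other group, VEGFC was called in GALNT3 KO too (adjusted p = 0.000869), as were 34.8% of all genes.

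VEGFB, a ligand of FLT1, had a log2 ratio of -0.77 and -0.49 on the GALNT3 KO arrays and of 1.24 and 1.63 on the GALNT3/T6 KO-labelled arrays. It thus lay below Ctrl on both arrays of the first group and above it on both of the second. The mean was 1.43 in the second group (2.70-fold, standard error 0.14, adjusted p = 0.00168 from limma) and -0.63 in the first (standard error 0.14, adjusted p = 0.0532). The junction probe of VEGFB printed above gave -0.64 and -0.82 in GALNT3 KO and 0.58 and 0.79 on the GALNT3/T6 KO-labelled arrays. In the fit over 38247 probes, this probe was called in both groups, at a mean of -0.73 (adjusted p = 0.0277) and 0.69 (adjusted p = 0.00531). The difference between the groups was 2.06 by the brighter probe (adjusted p = 0.00312) and 1.41 by the junction probe (adjusted p = 0.00343). With the mean of both probes VEGFB was called lower in GALNT3 KO (-0.68, adjusted p = 0.0313), and so it was without either replicate of the other group (adjusted p = 0.00276), where the same 34.8% of all genes were called.

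VEGFA, the main angiogenic ligand of KDR, had a log2 ratio of -0.058 and -0.32 on the GALNT3 KO arrays and of 0.81 and 1.26 on the GALNT3/T6 KO-labelled arrays by its brightest probe. Its mean was -0.19 in the first group (adjusted p = 0.38 from limma) and 1.03 in the second, 2.05-fold (standard error 0.14, adjusted p = 0.00507). The groups differed by 1.22 (standard error 0.20, adjusted p = 0.0153). The other 3 VEGFA probes did not move alike. The junction probe gave 1.02 and 1.38 on the GALNT3/T6 KO-labelled arrays, with a mean of 1.20 (adjusted p = 0.00147 over probes). A_23_P81805, a probe spotted 10 times whose spots were averaged, gave 0.54 and 0.65 there, with a mean of 0.59 (adjusted p = 0.00538). The remaining probe, A_24_P179400 at chr6:43738611-43738670, gave 0.26 and 0.031 and was not called (adjusted p = 0.271). Its sequence was 70.0% G and C, the highest of the 25 probes.

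PGF, placental growth factor, a ligand of FLT1 alone among the receptors, was the member that passed the test in no comparison. The GALNT3 KO arrays disagreed in sign, at log2 ratios of -0.40 and 0.34, against -0.44 and -0.63 on the GALNT3/T6 KO-labelled arrays. The mean of the second group was -0.53 (standard error 0.19, adjusted p = 0.079 from limma). With Agilent's own log ratio it was -0.68 (adjusted p = 0.0498). A call appeared when GALNT3/T6 KO replicate 1 was left out (-0.63, adjusted p = 0.0472) or when either GALNT3 KO replicate was (adjusted p = 0.0466). VEGFD, the other FLT4 ligand, which was read beside the members, stood at 0.39 and 0.26 in GALNT3 KO and at 0.39 and 0.39 on the GALNT3/T6 KO-labelled arrays. It was called higher on the GALNT3/T6 KO-labelled arrays (mean 0.39, adjusted p = 0.0184) and not in GALNT3 KO (0.33, adjusted p = 0.0698), and the groups differed by 0.063 (adjusted p = 0.797).

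**Figure D2:**
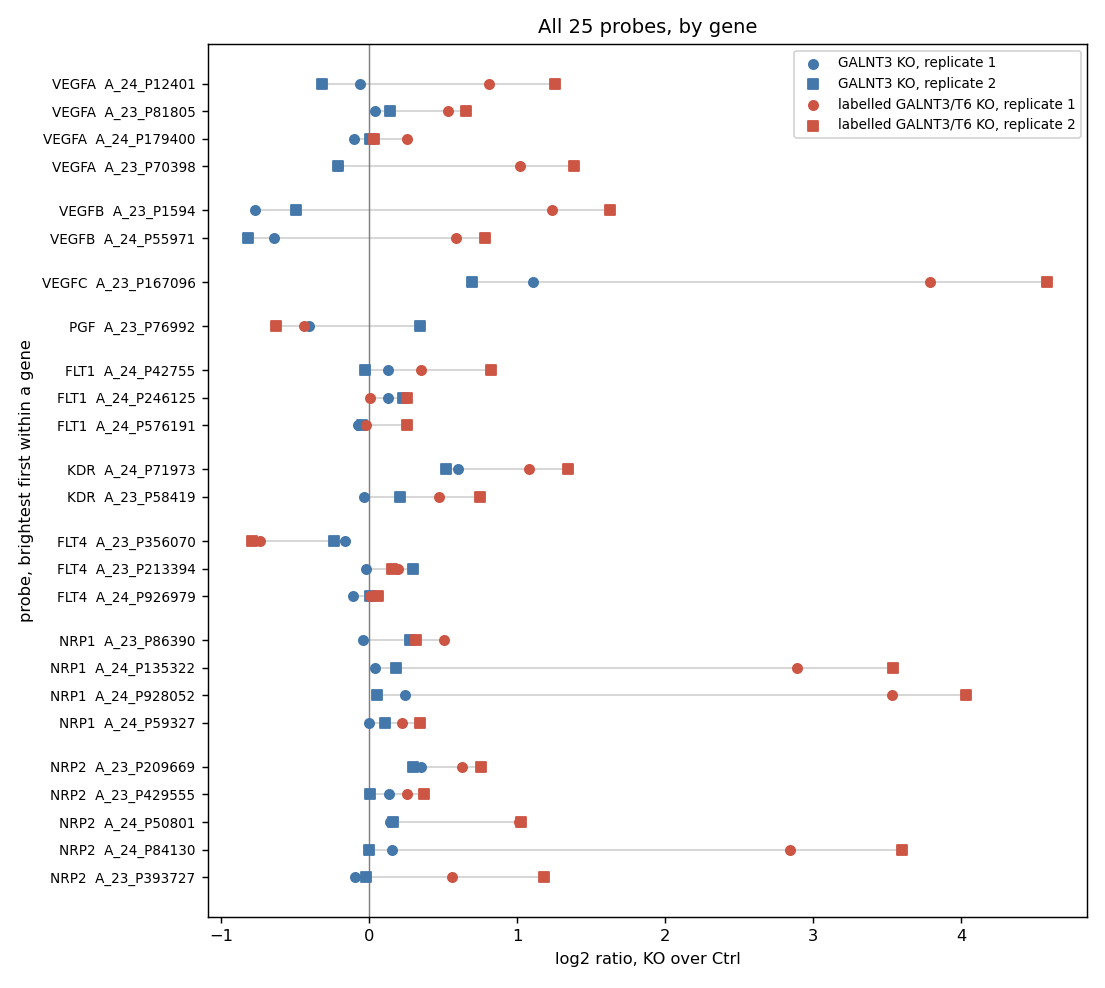
Log2 ratio of KO over Ctrl (horizontal axis) for each of the 25 probes (vertical axis, grouped by gene and ordered by brightness within a gene), with a point for each array and a line over their range. NRP1 and NRP2 hold probes with ratios from 2.85 to 4.03 on the GALNT3/T6 KO-labelled arrays next to probes below 1, and the FLT4 probes fall on both sides of 0.

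Among the receptors, KDR, which carries most of the proliferative VEGFA signal in endothelial cells, had a log2 ratio of 0.60 and 0.52 on the GALNT3 KO arrays and of 1.08 and 1.35 on the GALNT3/T6 KO-labelled arrays. All 4 values were above 0, and the groups did not overlap, as for 61.0% of all genes. The means were 0.56 (1.48-fold, standard error 0.10, adjusted p = 0.0419 from limma) and 1.21 (2.32-fold, standard error 0.10, adjusted p = 0.00115), and their difference was 0.65 (adjusted p = 0.0339). The dimmer junction probe of KDR gave -0.034 and 0.21 in GALNT3 KO and 0.47 and 0.75 on the GALNT3/T6 KO-labelled arrays, with GALNT3 KO replicate 1 not clear of background. It was called in the second group (0.61, adjusted p = 0.0119) and not in the first (0.087, adjusted p = 0.615). This probe passed the filter only through the GALNT3/T6 KO-labelled arrays, where it was higher, so its tests lean on that filter. The GALNT3 KO call of KDR ended with Agilent's log ratio (0.32, adjusted p = 0.191), with median centring (0.39, adjusted p = 0.161), and with the mean of both probes (0.32, adjusted p = 0.0942). Without GALNT3 KO replicate 1 or replicate 2, limma called 0 of all genes in GALNT3 KO, so the call of KDR could not be kept there. Its log2 ratio was then 0.52 (adjusted p = 0.289) and 0.60 (adjusted p = 0.411). The call of the difference ended with median centring (adjusted p = 0.122).

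FLT1, which binds VEGFA tightly and signals weakly, had a log2 ratio of 0.13 and -0.030 on the GALNT3 KO arrays and of 0.35 and 0.82 on the GALNT3/T6 KO-labelled arrays. The mean of the second group was 0.59 (standard error 0.14, adjusted p = 0.025 from limma), and its difference from GALNT3 KO was 0.54 (adjusted p = 0.13). The 2 other FLT1 probes, of which A_24_P576191 is annotated to transcript variant 2 and A_24_P246125 to variant 1, gave means of 0.12 and 0.13 there and were not called (adjusted p = 0.372 and 0.318). The FLT1 call ended with the mean of its 3 probes (0.28, adjusted p = 0.0831), without GALNT3/T6 KO replicate 2 (0.35, adjusted p = 0.0665), and without either GALNT3 KO replicate (adjusted p = 0.0838). The difference between the groups was called when GALNT3/T6 KO replicate 1 was left out (0.78, adjusted p = 0.00713).

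FLT4, the VEGFC receptor of lymphatic endothelium, was the only member called lower. Its brightest probe gave log2 ratios of -0.16 and -0.23 on the GALNT3 KO arrays and of -0.74 and -0.79 on the GALNT3/T6 KO-labelled arrays, with all 4 below 0. The mean of the second group was -0.76, a 1.70-fold fall (standard error 0.08, adjusted p = 0.0023 from limma), and the groups differed by -0.57 (adjusted p = 0.027). The probe annotated to transcript variant 1 that is printed above gave 0.0041 and 0.058 on the GALNT3/T6 KO-labelled arrays, and the third FLT4 probe, A_23_P213394, gave 0.20 and 0.15. Neither was called (adjusted p = 0.778 and 0.233), and with the mean of the 3 probes the fall was -0.19 and not called (adjusted p = 0.107). In the same clones the FLT4 ligand VEGFC rose, so that by the brightest probes ligand and receptor moved in opposite directions on both GALNT3/T6 KO-labelled arrays, while VEGFA and its receptor KDR both rose on both.

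The neuropilins were the members whose value depended most on the probe. NRP1, a co-receptor for VEGFA and for SEMA3A, had a log2 ratio of -0.037 and 0.28 on the GALNT3 KO arrays and of 0.51 and 0.32 on the GALNT3/T6 KO-labelled arrays by its brightest probe. The mean of the second group was 0.41 (1.33-fold, standard error 0.12, adjusted p = 0.0399 from limma), and the groups differed by 0.29 (adjusted p = 0.302). The junction probe printed above gave 0.041 and 0.18 in GALNT3 KO and 2.89 and 3.53 on the GALNT3/T6 KO-labelled arrays, and A_24_P928052, at chr10:33466936-33466995, gave 0.24 and 0.054 and then 3.53 and 4.03. Their means in the second group were 3.21 (9.26-fold, adjusted p = 0.000306 over probes) and 3.78 (13.8-fold, adjusted p = 0.000145). The fourth probe, A_24_P59327, gave 0.22 and 0.34 on the GALNT3/T6 KO-labelled arrays, averaging 0.28 (adjusted p = 0.0509 over probes). In the array annotation the brightest probe and A_24_P928052 list the same RefSeq transcripts, although their means in the second group were 0.41 and 3.78. The junction probe lists other RefSeq transcripts. Which NRP1 isoforms, soluble or membrane-bound, each of the 4 probes reads was not tested. Along the gene, which lies on the minus strand, the strongly raised probes were the outermost of the 4 and the little-changed probes lay between them.

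On the GALNT3 KO arrays, A_24_P928052 was dim in both channels, and the junction probe was well above background only in the KO channel of replicate 2. Between the groups the KO channel of A_24_P928052 was at least 21.0-fold brighter on the GALNT3/T6 KO-labelled arrays, a bound taken from the lowest signal well above background and open to dye bias. The Ctrl channel of the junction probe stood at log2 signals of 6.46 and 6.72 on the GALNT3 KO arrays and 7.90 and 8.67 on the GALNT3/T6 KO-labelled arrays, and that of A_24_P928052 at 6.10 and 6.35 against 7.27 and 7.63. The Ctrl channel thus rose on the same arrays as the KO channel, and its part in the ratios was not tested. The NRP1 call by the brightest probe ended with Agilent's log ratio (0.32, adjusted p = 0.0985), with median centring (0.35, adjusted p = 0.0622), without GALNT3/T6 KO replicate 1 (0.32, adjusted p = 0.127) and without either GALNT3 KO replicate (adjusted p = 0.0711). The junction probe and A_24_P928052 passed the filter only through the GALNT3/T6 KO-labelled arrays, where they were high. Their tests, and the mean of the 4 probes, thus lean on that filter. With that mean the groups differed by 1.81 (adjusted p = 0.00165 from limma).

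NRP2, a co-receptor for VEGFC and for SEMA3F, had a log2 ratio of 0.35 and 0.30 on the GALNT3 KO arrays and of 0.63 and 0.76 on the GALNT3/T6 KO-labelled arrays by its brightest probe. All 4 were above 0, and the groups did not overlap, as for 61.0% of all genes. The mean of the second group was 0.69 (1.62-fold, standard error 0.08, adjusted p = 0.00355 from limma), and the groups differed by 0.37 (adjusted p = 0.0987). In GALNT3 KO the mean was 0.32 (adjusted p = 0.0728), and without either replicate of the other group it was called (adjusted p = 0.0294), as were 34.8% of all genes. Again the probes differed. A_24_P84130, at chr2:206644148-206644207, gave 0.15 and -0.0013 in GALNT3 KO and 2.85 and 3.60 on the GALNT3/T6 KO-labelled arrays, with a mean there of 3.22 (9.33-fold, adjusted p = 0.00041 over probes). A_24_P50801, annotated to transcript variant 6, gave 1.01 and 1.03, the NRP2 probe printed above 0.56 and 1.18, and A_23_P429555, annotated to variant 4, 0.26 and 0.37. All 5 NRP2 probes were called higher in that group, with means from 0.31 to 3.22. A_24_P84130 was dim in both channels on the GALNT3 KO arrays, and between the groups its KO channel was at least 11.6-fold brighter on the GALNT3/T6 KO-labelled arrays, while for the printed NRP2 probe the bound was 1.96-fold. The spot of A_23_P429555 was well above background in every channel, but its log2 signal on GALNT3 KO replicate 1 was lower in both, at 8.22 and 8.36 against 10.11 to 10.48 on the other arrays. A_24_P84130 and the printed NRP2 probe passed the filter only through the GALNT3/T6 KO-labelled arrays, where they were high. Their tests, and the mean of the 5 probes, thus lean on that filter. With that mean the groups differed by 1.11 (adjusted p = 0.00778 from limma).

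**Figure D3:**
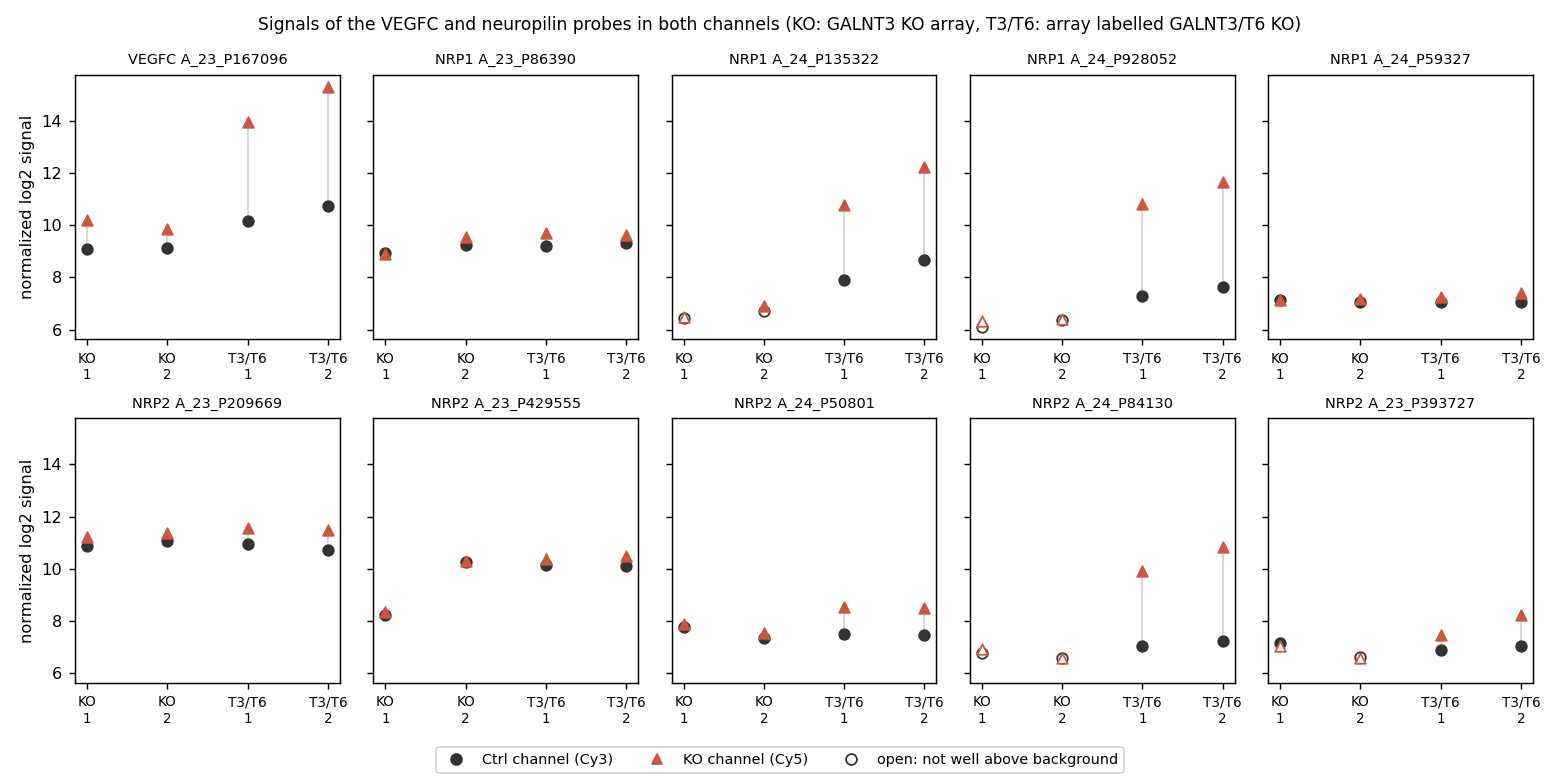
Normalized log2 signal (vertical axis) in the Ctrl channel (circles) and the KO channel (triangles) on each of the 4 arrays (horizontal axis) for the VEGFC probe, the 4 NRP1 probes and the 5 NRP2 probes, with open symbols where the spot was not well above background. On the GALNT3/T6 KO-labelled arrays the VEGFC, A_24_P135322, A_24_P928052 and A_24_P84130 signals separate between the channels and the Ctrl circles also lie above those of the GALNT3 KO arrays, while A_23_P86390 and A_24_P59327 stay near one level.

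Counted over probes, 17 of the 25 member probes were called higher and 1 lower on the GALNT3/T6 KO-labelled arrays, where 48.9% of all probes were called, 24.1% higher and 24.8% lower. In GALNT3 KO, 1 was called higher and 1 lower, where 11.5% of all probes were called, 4.37% higher and 7.12% lower. Between the groups, 12 were higher and 1 lower, where 25.3% of all probes were called, 12.5% higher and 12.8% lower. Without GALNT3 KO replicate 1 the last count fell from 13 probes to 1, and without replicate 2 to 3, while the share of all probes called fell to 4.58% and 5.33%. Probes of a gene share their transcripts and are not independent of each other. A_24_P135322, A_24_P928052, A_24_P84130, A_23_P393727, A_23_P58419 and A_24_P576191 passed the filter only through the GALNT3/T6 KO-labelled arrays. All but the last of these were called higher there, so the counts for those arrays and between the groups lean on that filter.

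For the 2 ligands with the largest rises, the 250 bases before the RefSeq start are given from GRCh38.p14, 5′ to 3′ on the gene's strand. Capitals mark GCGTG or its reverse complement, which with ACGTG is a core of the motif that hypoxia-inducible factors (HIF) bind.
VEGFC, chr4:176792923-176793172, minus strand: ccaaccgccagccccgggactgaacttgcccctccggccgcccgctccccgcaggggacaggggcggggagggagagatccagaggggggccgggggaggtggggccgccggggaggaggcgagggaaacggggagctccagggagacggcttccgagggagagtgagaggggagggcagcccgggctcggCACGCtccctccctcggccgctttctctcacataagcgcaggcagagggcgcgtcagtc
VEGFB, chr11:64234334-64234583, plus strand: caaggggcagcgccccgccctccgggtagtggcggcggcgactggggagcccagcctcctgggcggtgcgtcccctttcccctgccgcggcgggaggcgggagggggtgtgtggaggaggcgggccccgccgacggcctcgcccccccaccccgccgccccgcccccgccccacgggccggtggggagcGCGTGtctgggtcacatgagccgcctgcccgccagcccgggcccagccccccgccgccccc
Each held GCGTG once on either strand and ACGTG not at all. Of the 6 members matched by symbol in the promoter table, 4 held GCGTG (VEGFB, VEGFC, PGF and FLT1) and 0 held ACGTG, while 36.2% and 21.7% of the 27305 genes in the table hold them in the same window. VEGFA, FLT4 and NRP1 had no entry. A match is a description of letters and no evidence of binding.

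The genes of oxygen sensing, which act upstream of VEGFA, were read beside the members as the HIF subunits with their hydroxylases and VHL. On the GALNT3/T6 KO-labelled arrays, 3 of these 9 genes were higher and 1 lower, where 24.8% of all genes were called higher and 23.1% lower. In GALNT3 KO 1 was higher, where 4.69% of all genes were called higher. EPAS1, the alpha subunit of HIF-2, had log2 ratios of 0.21 and 0.16 in GALNT3 KO and of 5.72 and 5.81 on the GALNT3/T6 KO-labelled arrays, with a mean there of 5.77 (standard error 0.08, adjusted p = 9.19e-05 from limma). Its Ctrl channel stood at log2 signals of 8.24 and 8.18 on the GALNT3 KO arrays and 9.72 and 10.00 on the others. EGLN3, a prolyl hydroxylase that is itself induced by HIF, was higher in both groups, at means of 1.81 (adjusted p = 0.0116) and 2.08 (adjusted p = 0.0005). EGLN2, another of these hydroxylases, was lower on the GALNT3/T6 KO-labelled arrays (-1.02, adjusted p = 0.00148).

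Of 20 other genes known as HIF targets, 0 were called higher and 6 lower in GALNT3 KO by limma, beside 4.69% and 6.35% of all genes. The unadjusted p was at most 0.05 for 1 higher and 10 lower genes. The median of the 20 was -0.40 in GALNT3 KO and 0.19 on the GALNT3/T6 KO-labelled arrays, against 0.024 and 0.032 over all genes. On the GALNT3/T6 KO-labelled arrays, 8 were higher and 6 lower, beside 24.8% and 23.1% of all genes. ADM, the vasodilator peptide adrenomedullin, rose by 4.26 (adjusted p = 0.000179), LOX, which cross-links collagen, by 3.76 (adjusted p = 0.0001), and ANGPTL4, a lipase inhibitor, fell by 3.09 (adjusted p = 0.000331). STC2, a secreted glycoprotein, was lower in GALNT3 KO (-1.53, adjusted p = 0.0112) and higher on the GALNT3/T6 KO-labelled arrays (1.79, adjusted p = 0.00044), a difference of 3.31 (adjusted p = 0.000547). ANGPTL4 fell in GALNT3 KO too (-1.39, adjusted p = 0.0236). PFKFB4, a regulator of glycolysis, was lower in both groups, at -1.16 in GALNT3 KO (adjusted p = 0.0351) and -1.09 on the GALNT3/T6 KO-labelled arrays (adjusted p = 0.00922), and the difference of 0.075 was not called (adjusted p = 0.899).

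VEGFC and VEGFD are secreted as precursors and cut by proprotein convertases and by ADAMTS3, which CCBE1 assists. Of 6 such genes, 2 were higher and 1 lower on the GALNT3/T6 KO-labelled arrays, beside 24.8% and 23.1% of all genes. CCBE1 had log2 ratios of 1.02 and 1.26 there (mean 1.14, adjusted p = 0.0013 from limma) and ADAMTS14 of 0.81 and 0.36 (mean 0.59, adjusted p = 0.0276). ADAMTS3 stood at -1.75 and -2.70 (mean -2.22, adjusted p = 0.00322), so the protease was lower in the clones where VEGFC and CCBE1 were higher. In GALNT3 KO, the convertase PCSK7 was called higher (0.53, adjusted p = 0.0358), as 1 of the 6, beside 4.69% of all genes.

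Class 3 semaphorins share the neuropilins with VEGF ligands. Of the 7, 0 were called in GALNT3 KO by limma, where 11.0% of all genes were called. Their means in GALNT3 KO ran from -0.44 to 0.64, and the unadjusted p was at most 0.05 for 1 higher and 1 lower gene. On the GALNT3/T6 KO-labelled arrays 4 were higher and 1 lower, beside 24.8% and 23.1% of all genes. SEMA3B stood at 2.55 and 2.94 there (mean 2.74, adjusted p = 0.000264), SEMA3E at 2.43 and 1.34 (mean 1.89, adjusted p = 0.00567), and SEMA3D at -3.36 and -3.88 (mean -3.62, adjusted p = 0.000257). Of 5 plexins, the signalling partners of neuropilins, PLXNA4 was called higher in both groups, at means of 0.45 (adjusted p = 0.0459) and 0.44 (adjusted p = 0.0138), PLXNA2 was higher on the GALNT3/T6 KO-labelled arrays (0.42, adjusted p = 0.0259), and PLXNA1 lower there (-0.56, adjusted p = 0.0262).

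Some genes that act downstream of the receptors were also read. PRKCA, a protein kinase C activated after KDR, stood at 2.82 and 3.12 on the GALNT3/T6 KO-labelled arrays (mean 2.97, adjusted p = 0.000229 from limma). The PI3-kinase subunits PIK3R1 and PIK3CA were lower there, at -2.60 and -1.12 (adjusted p = 0.000863 and 0.00409). HSPB1, a small heat shock protein on the p38 branch, went opposite ways, at -2.04 and -2.02 in GALNT3 KO and at 2.51 and 2.77 on the GALNT3/T6 KO-labelled arrays, a difference of 4.67 (adjusted p = 0.000417). In GALNT3 KO, the adaptor SHC1 was higher (0.81, adjusted p = 0.0384).

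Of 11 angiopoietins and secreted regulators of angiogenesis, 1 was higher and 1 lower in GALNT3 KO, beside 4.69% and 6.35% of all genes. On the GALNT3/T6 KO-labelled arrays 4 were higher and 3 lower, beside 24.8% and 23.1% of all genes. The rises there were led by THBS2, a thrombospondin, at 2.34 and 3.47 (mean 2.91, adjusted p = 0.00167 from limma), and CXCL14, at 1.57 and 3.06 (mean 2.31, adjusted p = 0.00708). SERPINF1, which encodes the inhibitor PEDF, stood at -2.88 and -2.91 (mean -2.89, adjusted p = 0.0001) and ANGPTL4, given above, was also among the falls. VASH2 was the gene called higher in GALNT3 KO (0.42, adjusted p = 0.0437).

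**Figure D4:**
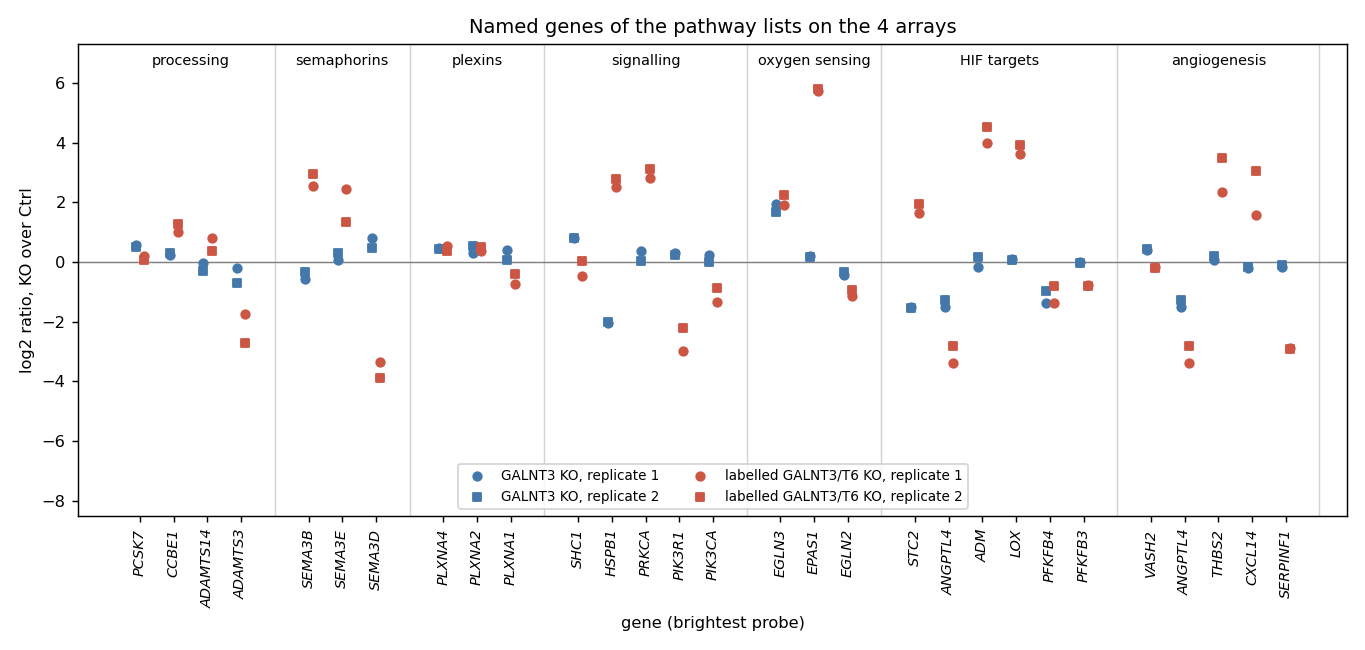
Log2 ratio of KO over Ctrl (vertical axis) on each of the 4 arrays for the named genes of the pathway lists (horizontal axis, grouped by list), each by its brightest probe. EPAS1, ADM and LOX reach 5.81, 4.53 and 3.91 on the GALNT3/T6 KO-labelled arrays and stay within 0.21 of 0 on the GALNT3 KO arrays, while SEMA3D and ADAMTS3 fall on the GALNT3/T6 KO-labelled arrays.

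Markers of cells in which these receptors are best known were read in the same way. Of 10 endothelial markers, PECAM1 and TIE1 did not pass the filter on background, and of the 8 tested 2 were higher (VWF 1.32, TEK 0.49) and 2 lower (EGFL7 -1.21, ROBO4 -0.29) on the GALNT3/T6 KO-labelled arrays, with 0 called in GALNT3 KO by limma, where the unadjusted p was at most 0.05 for 1 higher and 2 lower markers. Of all genes, 24.8% were called higher and 23.1% lower on the GALNT3/T6 KO-labelled arrays, and 11.0% were called in GALNT3 KO. The summed linear signal of the 8 tested endothelial markers was 4957 to 5622 in the Ctrl channels. It was 4622 and 5488 in GALNT3 KO and 4154 and 4650 on the GALNT3/T6 KO-labelled arrays. Of the lymphatic markers, LYVE1 did not pass, and PROX1 and PDPN were called in no comparison by limma, nor at an unadjusted p of at most 0.05 in GALNT3 KO. Of 4 leukocyte and macrophage markers, CD68 (1.70) and CSF1R (0.68) were higher on the GALNT3/T6 KO-labelled arrays, while their summed signal was 2312 to 3209 in Ctrl, 3558 and 2536 in GALNT3 KO and 3837 and 4950 on the GALNT3/T6 KO-labelled arrays. Of 10 epithelial and ovarian carcinoma markers, 8 were higher there, led by KRT18 (5.68) and KRT19 (4.81), and their summed signal was 951183 and 892009 against 8517 to 47058 in the Ctrl channels, the higher of these on the same arrays. The part of these markers in the values of the members was not tested.

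The 3 genes nearest to VEGFC, the member with the largest difference between the groups, were sought by Euclidean distance over the 4 log2 ratios. They were the transcript ENST00000548986, at a distance of 0.49, FTH1, the ferritin heavy chain, at 0.56, and F2R, a thrombin receptor, at 0.57. FTH1 stood at 0.85, 0.40, 3.88 and 4.97 on the 4 arrays, and F2R at 0.77, 0.77, 4.05 and 4.95.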

How the data were processed

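Total RNA of 4 KO clones was measured against Ctrl on Agilent whole human genome arrays. The authors deposited Feature Extraction files (version 10.7.3.1 per the file headers, 8.5.1.1 in the submitters' processing notes) with the intensity of each spot in both channels and a log10 ratio of Cy5 over Cy3, and a value table that equals that log10 ratio to within 0.005. The hg19 positions are those of the array annotation in the files. From the deposited mean intensity and background, normexp (offset 50) and loess within each array gave log2 ratios, with limma 3.58.1 in R 4.3.3. Control spots (1639 of 45015) and outlier spots were left out (0 of the member spots), and spots of 1 probe were averaged. A probe was kept where both arrays of a group held it clear of background in 1 channel or more. That left 38247 probes, and the brightest of each gene gave 27220 genes. Symbols were updated through RefSeq accessions for 30364 non-control spots, and 10039 spots kept the file's name. limma fitted a mean for each group over all 4 arrays without a block, and its moderated test set each group against 0 and the groups against each other. The fit was tested on simulated data.

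No Ctrl sample was hybridised against Ctrl, so the test against 0 leaves out the spread of Ctrl and holds any dye effect of a probe. The difference between the groups relies on Ctrl RNA that is not known to be the same on all 4 arrays. Some Ctrl signals, such as those of VEGFC and EPAS1 given above, were brighter on the GALNT3/T6 KO-labelled arrays. The p-values measure the spread between these clones, 2 per group. Their number limits the precision. Where a probe was not well above background on both arrays of a group, a lower bound between KO channels is given, from per-channel means after loess and Aquantile. In the text, all 9 members are named. From each list of related genes up to 2 rises and 2 falls among those called are named per comparison, with VEGFD, the targeted genes and the 3 genes nearest to the member with the largest difference. The members and the lists were chosen with earlier results of these data known. A gene of the receptor signalling list was taken out after its values were seen and is not reported here, so no count is given for that list. Alternatives were no background correction, Agilent's log ratio, the value table, median centring, the mean of a gene's probes, each other probe, other filters on dim probes, the spread of 1 group alone, each array left out, the replicate number as a block, and the study's criterion of an unadjusted p of at most 0.05 with at least 1.5-fold.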

Additional observations from a re-analysis of the deposited data

Results flagged for a closer look

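For 5 of the 9 genes the effect of the 2 groups differed by limma's test of the difference itself, as log2 ratio on the GALNT3/T6 KO-labelled arrays minus that in GALNT3 KO. VEGFC differed by 3.28 (adjusted p = 0.00338), VEGFB by 2.06 (adjusted p = 0.00312) and VEGFA by 1.22 (adjusted p = 0.0153), each higher on both GALNT3/T6 KO-labelled arrays than on both GALNT3 KO arrays. KDR differed by 0.65 (adjusted p = 0.0339). FLT4 differed by -0.57 (adjusted p = 0.027), and its other probes did not follow. All 5 calls were lost without GALNT3 KO replicate 1 or without replicate 2, at adjusted p from 0.0519 to 0.215, where the calls over all genes also fell, from 6447 to 1269 and 1467.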

How the results depend on the processing

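The counts of members called on the GALNT3/T6 KO-labelled arrays held within 1.5 times under every alternative run, at 6 to 9 genes against 8 and 13 to 20 probes against 18. The 13 came from the filter that asked for both channels on all 4 arrays. It left 19 of the 25 member probes to test, and 50% of all probes were called. The genes behind the gene counts were not always the same. Agilent's log ratio gave 6 genes higher and 2 lower, and the mean of a gene's probes 6 higher and 0 lower, against 7 and 1. In GALNT3 KO, where 1 gene and 2 probes were called, Agilent's log ratio, the value table and median centring each left 0 genes and 1 probe, where 2.18%, 2.19% and 8.57% of all genes were called against 11.0%, although limma's unadjusted p was at most 0.05 for 3, 3 and 2 genes. The study's criterion gave 2 genes there, and the spread of the GALNT3 KO arrays alone gave 4 genes and 5 probes among 34.8% of all genes and 35.8% of all probes. Leaving out each array gave 0 to 4 genes and 0 to 5 probes in GALNT3 KO, as the calls over all genes went from 0 to 9486. For the difference between the groups, where 5 genes and 13 probes were called, it gave 0 to 6 genes and 1 to 15 probes, with 1269 to 8951 genes called in all, so these counts moved with those of the whole array. Without an array of the other group, the spread comes from fewer arrays, and a lone array is assumed to vary like the other group. The 2 other FLT4 probes turned its direction, to 0.17 and 0.031 on the GALNT3/T6 KO-labelled arrays and to 0.036 and 0.081 for the difference. No other called value of a member turned. Among values called neither before nor after, 9 for 6 genes changed sign in GALNT3 KO (VEGFA, PGF, FLT1, FLT4, NRP1 and NRP2) and 1 for FLT1 in the difference. The genes read beside the members were not rerun under the alternatives.

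The groups share only replicate numbers, and same-numbered arrays deviated at r = -0.239 over genes. With the replicate block, limma called 0 genes and 0 probes in GALNT3 KO, where 82 genes and 146 probes were called in all and the unadjusted p was at most 0.05 for 4 member genes and 5 of their probes. It called 3 genes for the difference and 6 on the GALNT3/T6 KO-labelled arrays. The crossed numbers, an alternative chosen after seeing the data, gave 2, 9 and 5 genes in the 3 comparisons.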
